A study of Drosophila melanogaster with 2 samples.

Results

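Peaks between divergent promoters were studied in chromatin from whole Drosophila melanogaster embryos. A peak belonged to the set if its summit lay between a minus-strand protein-coding transcription start site (TSS) at a lower coordinate and a plus-strand one at a higher coordinate, each at most 500 bp away. Summits within 100 bp of a tRNA gene were left out. The rule uses summit position and annotation only, and it found 1168 of the 5823 peaks (20.1%, 95% Wilson interval 19.0 to 21.1) of the main peak list on the 6 main chromosome arms. Members were 27.0% of the 4332 promoter peaks of that list, 23.3% of those of replicate 1 and 39.1% of those of replicate 2, a mean of 31.2% ± 11.2 over the replicates (SD, n = 2). The remaining peaks served for comparison. They were 1993 promoter peaks at or upstream of the nearest TSS ("upstream"), 1171 promoter peaks downstream of it ("downstream"), 1283 peaks over 500 bp from any protein-coding TSS and 208 peaks at tRNA genes. Upstream peaks had no second TSS facing away on the other side within 500 bp of the summit, though one could lie farther off.

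The libraries came from 1 group, embryos of the transgenic strain amos-GFP collected 0 to 18 hours after laying, with 2 biological replicates. An antibody against GFP pulled down an Amos protein fused to eGFP, although the antibody field of the labels reads amos. Chromatin was sonicated to 200 to 800 bp, while the TSSs around a member were 281 bp apart in the median. Whole embryos were used, so cells with and without Amos are mixed, and the labels do not give the promoter that drives the fusion. No untagged or input library was analysed here. The main list ("optimal") holds peaks called on the pooled reads that passed the authors' irreproducible discovery rate procedure, which keeps peaks that rank alike in 2 sets of reads. On these arms replicate 1 had 6213 peaks in its own list, against 2880 for replicate 2. The signal of a peak is the value the authors gave it and was used only within a list. No read counts are in the lists, so depth is unknown, and the intervals below run over peaks, genes or promoter pairs and not over embryos.

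Amos belongs to the proneural transcription factors of the basic helix-loop-helix class and acts in the formation of sensory organs, above all olfactory ones, and binds DNA at E-boxes (CANNTG) together with Daughterless. Divergent promoters are pairs of promoters that lie head to head, with the genes transcribed away from each other, and in the compact fly genome they often serve genes that all cells use. Many such promoters carry short elements bound by other proteins: CGATAG by the insulator protein BEAF-32, TATCGATA by the replication-related factor DREF, and GGTCACACT by M1BP.

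Several named gaps are short enough to show the sequence from one promoter to the other. The whole interval between the TSSs, without the TSS bases, is printed for 8 pairs at most 150 bp wide. They are PRL-1 / EndoGI at chr2L:16257607-16257687, C3G / pod1 at chrX:6803594-6803683, Rab30 / Caper at chr2L:7032607-7032720, eIF2gamma / Set at chr3R:15263459-15263551, eIF3a / CG1074 at chr3R:4433896-4433964, Rop / Ras64B at chr3L:4138997-4139075, TrpRS / Vps16A at chr3R:9266905-9267018 and GlnRS / RIOK2 at chr3R:25265722-25265843. All are on the plus strand of dm6, read from the RefSeq genome of the same assembly, and the gene named first is the one on the minus strand. Capitals mark CGATAG, TATCGATA, GGTCACACT and CAGCTG on either strand, and the single match of GlnRS / RIOK2 lies at the end of its gap, beyond the summit window. CTATCG is CGATAG read on the other strand, and where TATCGATA runs into a G the last 6 letters are also a CGATAG.
PRL-1 / EndoGI: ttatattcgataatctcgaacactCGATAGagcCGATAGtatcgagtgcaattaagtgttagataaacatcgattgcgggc
C3G / pod1: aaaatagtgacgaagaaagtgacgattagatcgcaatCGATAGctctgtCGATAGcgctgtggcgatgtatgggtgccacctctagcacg
Rab30 / Caper: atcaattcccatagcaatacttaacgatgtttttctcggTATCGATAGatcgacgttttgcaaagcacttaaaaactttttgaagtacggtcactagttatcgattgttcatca
eIF2gamma / Set: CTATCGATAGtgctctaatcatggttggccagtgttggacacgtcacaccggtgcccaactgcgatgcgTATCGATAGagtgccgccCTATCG
eIF3a / CG1074: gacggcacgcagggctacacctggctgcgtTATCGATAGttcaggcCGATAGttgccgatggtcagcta
Rop / Ras64B: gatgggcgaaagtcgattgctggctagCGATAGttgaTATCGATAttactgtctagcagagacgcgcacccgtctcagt
TrpRS / Vps16A: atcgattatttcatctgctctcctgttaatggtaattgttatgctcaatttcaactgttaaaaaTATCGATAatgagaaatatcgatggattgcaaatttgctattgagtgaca
GlnRS / RIOK2: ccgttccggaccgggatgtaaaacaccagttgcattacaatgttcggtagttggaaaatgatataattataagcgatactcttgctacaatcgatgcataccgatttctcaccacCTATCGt

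In wider gaps only the part of the summit window (50 bp to each side of the summit) that lies in the gap is printed, again from the plus strand of dm6. These are RpL32 / CG7943 at chr3R:30046170-30046270 and CG15356 / CG15362 at chr2L:1980765-1980865, among the strongest members, Fibp / Deaf1 at chr3L:19818090-19818173, which has the palindrome CTATCGATAG, and Zdhhc8 / BCL7-like at chrX:9356274-9356374, which has TATCGATA without CGATAG. PIG-C / CG12016 at chr3L:3319259-3319359 has all 3 elements. Mic26-27 / CG5916 at chr3R:16146889-16146989 and mRpL33 / norpA at chrX:4322517-4322617 have none of them, and CG2246 / CG31021 at chr3R:30601866-30601966 is the widest gap among members in the top 10% by signal.
RpL32 / CG7943: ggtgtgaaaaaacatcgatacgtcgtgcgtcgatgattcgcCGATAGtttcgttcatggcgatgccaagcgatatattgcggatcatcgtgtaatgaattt
CG15356 / CG15362: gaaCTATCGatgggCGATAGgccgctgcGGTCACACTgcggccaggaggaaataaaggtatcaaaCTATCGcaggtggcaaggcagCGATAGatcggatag
Fibp / Deaf1: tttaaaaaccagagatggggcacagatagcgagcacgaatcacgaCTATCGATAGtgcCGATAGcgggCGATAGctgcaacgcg
Zdhhc8 / BCL7-like: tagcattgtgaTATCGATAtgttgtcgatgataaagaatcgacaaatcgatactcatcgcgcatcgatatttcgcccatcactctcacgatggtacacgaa
PIG-C / CG12016: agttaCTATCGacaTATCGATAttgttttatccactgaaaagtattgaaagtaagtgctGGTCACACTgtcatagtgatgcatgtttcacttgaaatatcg
Mic26-27 / CG5916: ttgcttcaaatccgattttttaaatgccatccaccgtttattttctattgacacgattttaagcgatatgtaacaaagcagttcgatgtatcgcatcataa
mRpL33 / norpA: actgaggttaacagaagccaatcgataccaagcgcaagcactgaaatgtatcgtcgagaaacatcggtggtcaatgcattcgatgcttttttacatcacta
CG2246 / CG31021: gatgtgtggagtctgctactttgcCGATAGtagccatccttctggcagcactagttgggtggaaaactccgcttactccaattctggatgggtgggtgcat

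All 12 members with the highest signal were in both replicate lists. The peak between TAF1C-like and MESK2 on arm 2R came first, with a signal of 4124 in the pooled reads, 2580 in replicate 1 and 1535 in replicate 2. It ranked second among all peaks of the pooled list and second in each replicate. RpL32, which encodes a protein of the large ribosomal subunit, and CG7943 had 3441 in the pooled reads, 2395 in replicate 1 and 1062 in replicate 2. The next member lay between Rpn6, a proteasome subunit, and ave, at 3036 in the pooled reads, 1997 in replicate 1 and 1038 in replicate 2. Sec61alpha, the pore subunit of the protein translocation channel, shared a peak of 2964 with Daxx. EndoGI, an inhibitor of endonuclease G, and the phosphatase gene PRL-1 had 2310.2, and CG11779 and nanos, a translational repressor of the posterior and the germ line, had 2242.

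The other 6 of the 12 had signals between 1812 and 2081: C3G / pod1, CG15356 / CG15362, Rab30 / Caper, Fibp / Deaf1, janA / Sry-alpha and Oda / SmD3. Their genes include a guanine nucleotide exchange factor for Rap1 (C3G), a small GTPase (Rab30), a splicing cofactor (Caper), a transcription factor (Deaf1) and a core spliceosome protein (SmD3). CGATAG was in the summit window of 11 of the 12, though for janA / Sry-alpha no copy in the window lay wholly within the gap. Rpn6 / ave had no CGATAG in its window, which held a TATAAA. An E-box was in the windows of CG11779 / nanos and CG15356 / CG15362 and in none of the other 10.

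**Figure D1:**
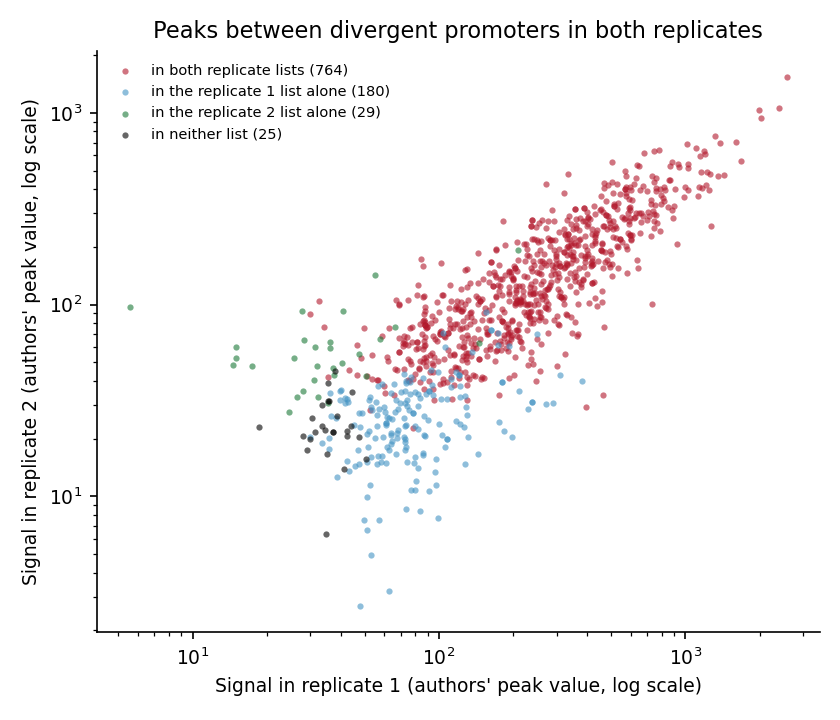
Signal of 998 peaks between divergent promoters in replicate 1 (x axis) and replicate 2 (y axis), both on log scales and taken from the ranked list of each replicate; colours show in which thresholded replicate lists the peak was found. The 764 peaks found in both lists fill the upper right, and the 180 found in replicate 1 alone lie at lower signal in replicate 2.

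Members were strong peaks by rank. Over all 1168, the signal in the pooled reads had a median of 238 and ran from 3.61 to 4124. Replicate 1 gave a median of 165 over 1164 members (5.56 to 2580) and replicate 2 a median of 92.9 over 1001 members (2.68 to 1535). In the pooled list the median signal percentile was 69.8 for members, 62.0 for upstream peaks and 32.2 for downstream peaks. With all peaks in 5 equal groups from low to high signal, members made up 6.44%, 11.0%, 19.0%, 29.1% and 34.8%. Members thus grew more frequent in every step up the list.

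The very top of the list did not set members apart from upstream peaks. Of the members, 17.2% (15.2 to 19.5) were in the top 10% by signal, against 16.7% of upstream peaks and 2.39% of downstream peaks, with a background of 9.99% over all peaks. In a logistic regression over all promoter peaks the odds ratio was 1.04 (95% interval 0.855 to 1.26) against upstream peaks, with a Benjamini-Hochberg (BH) adjusted p = 0.782, n = 4332 peaks. Against downstream peaks it was 8.49 (5.66 to 12.7, adjusted p = 1.80e-24, n = 4332 peaks). The replicates differed in rank: the median percentile of members was 74.2 in replicate 1, against 62.9 for upstream peaks, and 54.5 in replicate 2, against 56.3 for upstream peaks. Ranked by signal, members therefore stood above upstream peaks in replicate 1 and not in replicate 2.

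Members were found in both replicates more often than other promoter peaks. Both replicate lists held 65.4% of members (62.6 to 68.1), 49.0% of upstream peaks and 16.7% of downstream peaks, and 39.7% of all peaks. The odds ratio was 1.97 (1.69 to 2.28, BH adjusted p = 2.16e-18) against upstream and 9.47 (7.79 to 11.5, adjusted p = 3.42e-111, n = 4332 peaks) against downstream peaks in the logistic regression. With log10 signal as a covariate it was 1.91 (1.57 to 2.32, adjusted p = 5.09e-10, n = 4332 peaks) against upstream peaks. Against downstream peaks it fell to 2.96 (2.32 to 3.78, adjusted p = 2.15e-17, n = 4332 peaks) with that covariate. In the highest of the 5 signal groups, 95.1% of members, 88.4% of upstream and 89.3% of downstream peaks were in both lists, and in the next 80.2%, 67.8% and 58.9%.

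The conservative list of the authors held 76.5% of members, 61.8% of upstream peaks and 30.0% of downstream peaks (52.1% of all peaks; odds ratio against upstream 2.02, BH adjusted p = 7.57e-17, n = 4332 peaks). A q value of 0.05 or less was given to 92.0% of members, 85.6% of upstream and 64.9% of downstream peaks (76.4% of all; odds ratio against upstream 1.94, adjusted p = 3.11e-07, n = 4332 peaks). Seen from the replicate lists, 66.7% of the 1138 members of replicate 1 were shared, against 44.0% of its upstream peaks. In replicate 2, 94.4% of its 810 members and 92.0% of its upstream peaks were shared, a difference that did not pass the threshold (BH adjusted p = 0.105, n = 2073 peaks). Spearman's rank correlation of the signals of replicates 1 and 2, given as a description over peaks that share libraries, was 0.854 over 998 members, 0.794 over 1500 upstream peaks and 0.459 over 678 downstream peaks.

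**Figure D2:**
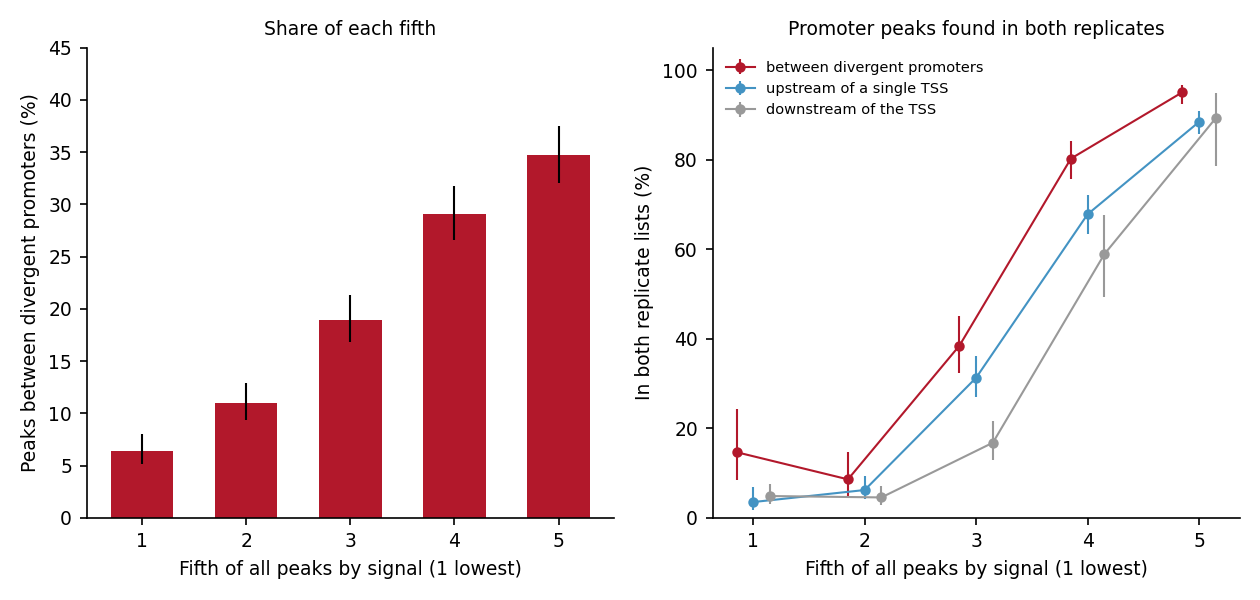
Left, share of peaks between divergent promoters in each of 5 equal groups of all 5823 peaks by signal, with 95% Wilson intervals, which runs from 6.44% to 34.8%. Right, share of promoter peaks found in both replicate lists in each group, for peaks between divergent promoters (red), upstream (blue) and downstream (grey) peaks; red is at 80.2% in group 4.

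The annotation holds 2511 adjacent divergent TSS pairs at most 1000 bp apart, and a summit lay between the TSSs of 1199 of them (47.7%, 45.8 to 49.7). Replicate 1 gave 46.8% and replicate 2 gave 33.2%, a mean of 40.0% ± 9.57 (SD, n = 2). By distance between the TSSs the share was 42.3% up to 100 bp, 42.7% above 100 and up to 200 bp, 50.7% up to 300, 54.0% up to 400, 56.2% up to 500 and 44.5% up to 1000 bp.

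Genes with a divergent partner had promoter peaks more often than genes without one. Of 4993 protein-coding genes with such a partner, 61.1% (59.7 to 62.4) had a summit within 500 bp of a TSS, against 24.1% (23.2 to 25) of 8952 genes without one and 37.3% of all 13945. A peak can count for both genes of a pair. Counting only summits 0 to 200 bp upstream of a TSS, the shares were 43.0% and 15.9%. In all, 2268 genes (16.3% of protein-coding genes) had a TSS that bounds a member.

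Whether a divergent pair had a peak differed widely with CGATAG, and as widely with TATCGATA, given further below. Of 824 pairs with a CGATAG anywhere between their TSSs, 75% (71.9 to 77.8) had a peak, against 34.4% (32.2 to 36.7) of 1687 pairs without one. The difference of 40.6 points (36.7 to 44.2) was close to that in replicate 1, at 75.2% against 32.8%, and in replicate 2, at 60.1% against 20.1%. It was seen at every distance between the TSSs, from 66.4% against 33.7% up to 100 bp to 70.2% against 29.2% above 500 bp. This comparison and the one with mirror positions below were chosen after the data were seen and carry no test.

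Among the other motifs, TATCGATA gave shares of 82.8% with and 40.4% without it. Gaps that also held CGATAG, which can overlap TATCGATA, were not set apart. GGTCACACT gave 60.8% with and 46.9% without it in the pooled list, 52.9% and 46.4% in replicate 1, and 40.5% and 32.7% in replicate 2. Pairs with an E-box between the TSSs had a peak in 46.6% of cases and pairs without one in 50.3% (difference -3.65 points, -7.85 to 0.565). The difference was -1.58 points (-5.78 to 2.62) in replicate 1 and -5.36 points (-9.41 to -1.37) in replicate 2. CAGCTG, an E-box hexamer, gave 51.7% with and 46.9% without it in the pooled list, and 30.5% and 33.8% in replicate 2. GAGAGAG, the site of GAGA factor, had lower shares with it, at 33.6% with and 48.4% without it. Unlike CGATAG, these motifs were not split by distance between the TSSs, with which the share of pairs with a peak also varied.

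**Figure D3:**
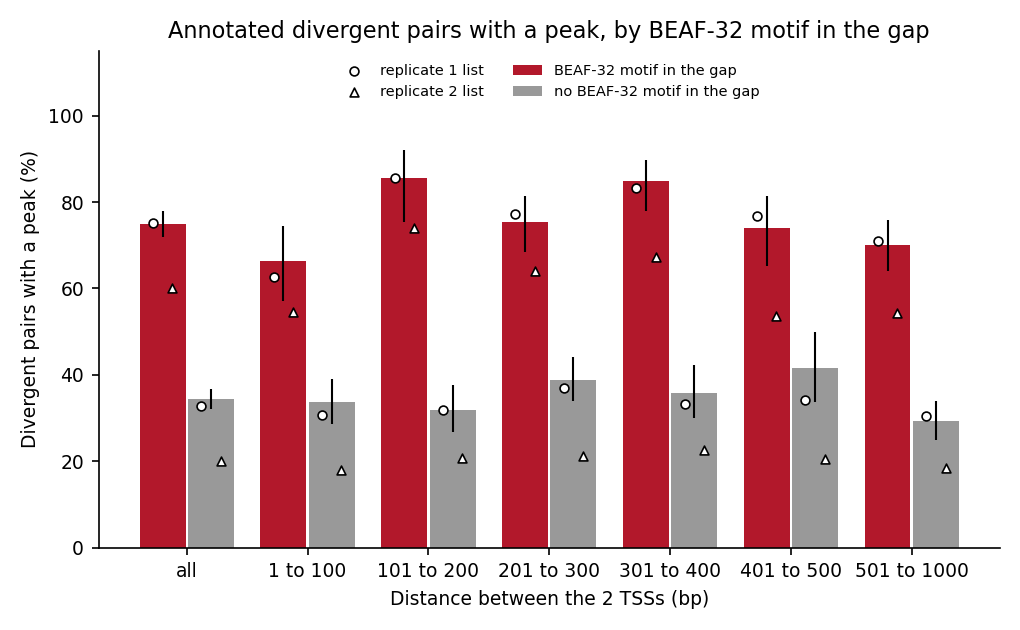
Share of annotated divergent TSS pairs with a peak between the TSSs, for pairs with (red) and without (grey) a BEAF-32 motif in the gap, over all pairs and by distance between the TSSs. Bars give the pooled list with 95% Wilson intervals, circles and triangles the lists of replicates 1 and 2; over all pairs the bars stand at 75% and 34.4%.

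Summits lay close to a TSS, and in gaps above 300 and up to 500 bp few lay in the middle. The TSSs bounding a member were 281 bp apart in the median (26 to 990). The summit was 43 bp from the nearer TSS and 219.5 bp from the farther one, and it was nearer to the minus-strand TSS in 567 members (48.5%). For comparison, upstream peaks had a median distance of 47 bp to their TSS. With each gap divided into 3 equal parts, the middle part held 25.7% of summits. It held 47.2% in gaps up to 100 bp, 45.6% up to 200 bp and 26.9% up to 300 bp. In wider gaps it held 9.72% up to 400 bp and 6.15% up to 500 bp (3.47 to 10.7), and above 500 bp 25.9% of 81 (17.6 to 36.4).

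At 300 bp or more, 83.6% (80.2 to 86.6) of 507 summits were within 100 bp of a TSS, at 82.2% in replicate 1 and 79.2% in replicate 2. Beyond 500 bp the rule itself keeps summits off the ends, since both TSSs must be within 500 bp. Of the 1115 distinct pairs, 53 held 2 members. None of these 53 gaps was under 225 bp, and no 2 summits of a pair were closer than 199 bp, so the count says nothing of narrow gaps. The summits were 199 to 481 bp apart, on opposite sides of the midpoint in 51 of them. The stronger of the 2 had 2.38 times the signal of the weaker in the median (1.01 to 71.1). Between Ndfip and CG7484, for example, the 2 signals were 857 and 91.4.

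**Figure D4:**
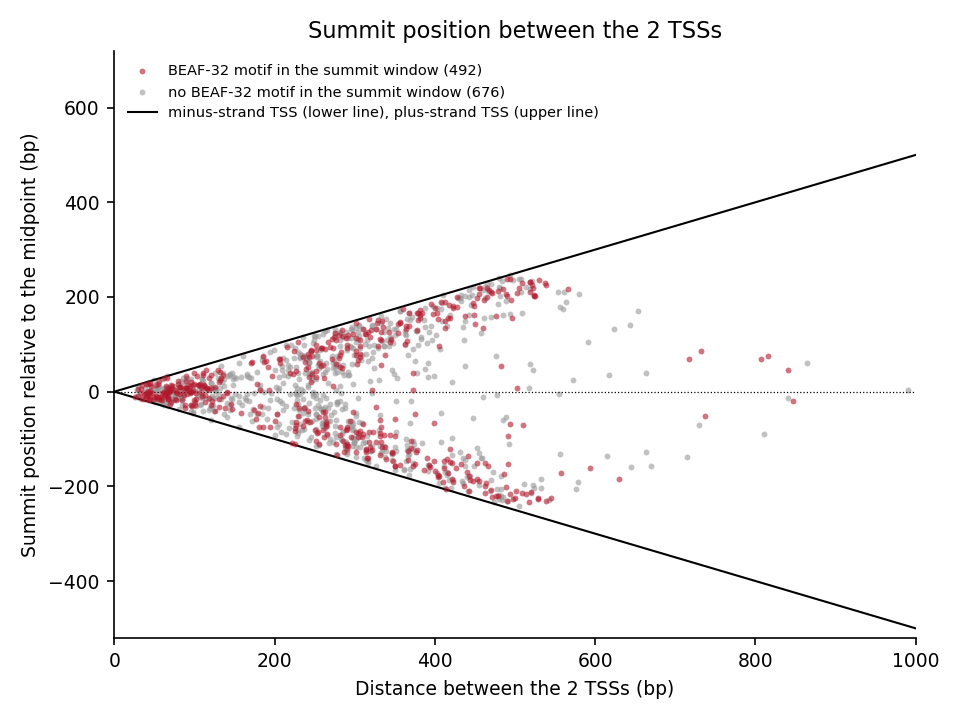
Summit position of each of the 1168 peaks relative to the midpoint between its TSSs (y axis, bp) against the distance between the TSSs (x axis, bp), with the TSSs as black lines. Between 300 and 500 bp the points run along both lines and few lie in the middle; red points have a BEAF-32 motif in the summit window (492) and grey points have none (676).

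CGATAG lay on the side of the gap where the summit was. For 709 members the summit window and its mirror image about the midpoint of the same gap did not overlap. CGATAG was in 44.6% of the summit windows and 15.9% of the mirror windows. Of 299 members with it on 1 side only, it was at the summit in 251 (83.9%, 79.4 to 87.7). Replicate 1 gave 85.5% and replicate 2 gave 82.4%. Both windows are centred in the same gap and lie equally far from their nearer bounding TSS. Adjacent divergent TSSs bounded 1041 of all 1168 members. In the remaining members another protein-coding TSS can lie in the gap, so this match covers the bounding TSSs only.

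TATCGATA mostly shared its summit windows with CGATAG, in 178 of 246 over all members. It behaved likewise, at 21.0% of summit and 8.46% of mirror windows. For GGTCACACT, E-boxes, CAGCTG and TATAAA no such excess was seen at the summit. GGTCACACT was in 4.37% and 5.36% and E-boxes in 38.9% and 36.8%. CAGCTG was in 10.4% of summit and 9.45% of mirror windows. TATAAA, the TATA box, was in 11.8% of summit and 16.1% of mirror windows, and 41.3% (34.2 to 48.7) of the members with it on 1 side only had it at the summit. AGNTGGCGC, the core of the CTCF site, was too rare to read, in 7 summit and 4 mirror windows in the pooled list, 8 and 1 in replicate 1 and 5 and 2 in replicate 2. The median GC share was 41.6% at the summit and 37.6% at the mirror position.

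**Figure D5:**
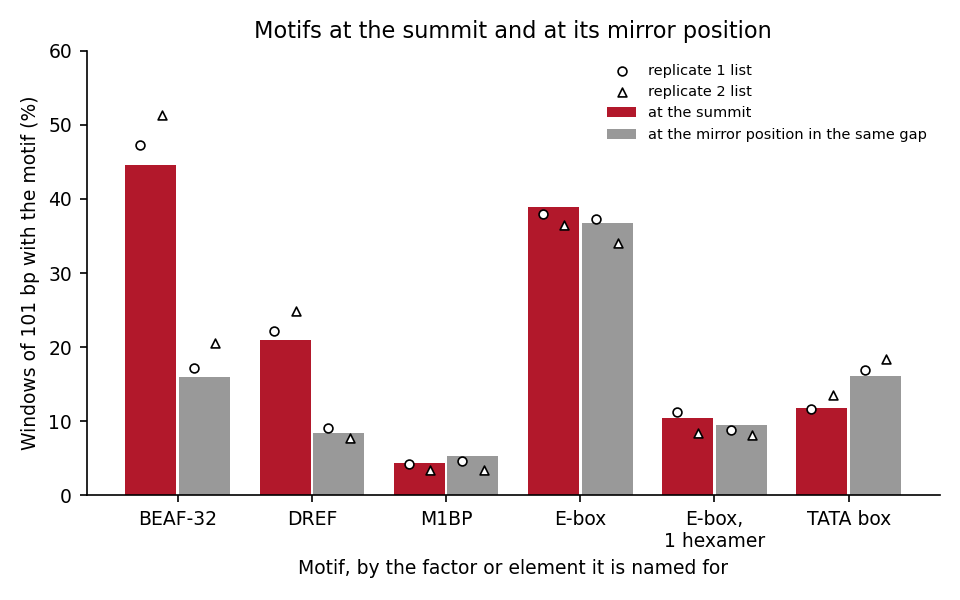
Share of windows (50 bp to each side) with each motif at the summit (red) and at its mirror position in the same gap (grey), for 709 peaks whose windows do not overlap; circles and triangles give the lists of replicates 1 and 2. The BEAF-32 motif was in 44.6% against 15.9% and E-boxes in 38.9% against 36.8%.

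Set against other promoter peaks, members had most motifs about as often as upstream peaks. In the summit windows, CGATAG was found in 42.1% of members (39.3 to 45), 36.7% of upstream peaks and 12.2% of downstream peaks, against 9.97% of all protein-coding promoters and 2.57% of windows 1000 bp from member summits. The odds ratio against upstream peaks was 1.25 (1.08 to 1.45, BH adjusted p = 0.00493, n = 4332 peaks, logistic regression with 24 tests). That call rested on replicate 1 (44.4% against 33.7%), since replicate 2 gave 46.4% against 48.3% (adjusted p = 0.611, n = 2073 peaks). With log10 signal as a covariate the odds ratio in the pooled list was 1.07 (adjusted p = 0.495, n = 4332 peaks). Against downstream peaks the odds ratio without covariates was 5.23 (4.24 to 6.45, adjusted p = 6.40e-53, n = 4332 peaks). The difference was called in both replicates, at 44.4% against 10.9% and at 46.4% against 34.5%. With log10 signal as a covariate this odds ratio fell to 1.86 in the pooled list (1.46 to 2.36, adjusted p = 1.34e-06, n = 4332 peaks). In signal group 4 CGATAG was in 43.1% of members and 42.1% of downstream peaks, and in group 5 in 65.2% and 66.1%. In each lower group the share was higher in members, for example 25.3% against 10.8% in group 3.

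TATCGATA was in 21.1% of members, 21.4% of upstream and 5.72% of downstream peaks, and in 4.61% of all promoters. Against upstream peaks it was not called in this fit (odds ratio 0.981), and was lower in members with signal, GC share and distance to the TSS as covariates (0.744, adjusted p = 0.00563, n = 4332 peaks). It was called against downstream peaks (odds ratio 4.40, BH adjusted p = 6.25e-24, n = 4332 peaks). In replicate 2 it was not called, at 23.5% against 20.1% (adjusted p = 0.453, n = 2073 peaks). GGTCACACT was in 5.39% of members, 4.52% of upstream and 4.18% of downstream peaks, with 1.73% of all promoters, and neither difference passed in the pooled list. The difference from downstream peaks passed in replicate 1, at 5.45% against 2.56% (adjusted p = 0.00029, n = 4891 peaks), and ran the other way without passing in replicate 2, at 4.44% against 6.99% (adjusted p = 0.226, n = 2073 peaks). E-boxes were in 39.6% of members, 37.7% of upstream peaks, 41.8% of downstream peaks and 39.1% of all promoters. The difference from upstream peaks was 1.87 points (-1.63 to 5.40, adjusted p = 0.355, n = 4332 peaks). CAGCTG was in 10.7%, 10.3% and 8.11%, with 7.14% of all promoters (against downstream peaks odds ratio 1.36, adjusted p = 0.0519, n = 4332 peaks). That comparison passed with signal as a covariate (1.52, adjusted p = 0.0129, n = 4332 peaks) and with signal, GC share and distance to the TSS (2.03, adjusted p = 2.31e-05, n = 4332 peaks). It passed in replicate 1 (11.9% against 7.21%, adjusted p = 0.000101, n = 4891 peaks) and not in replicate 2 (7.65% against 8.73%, adjusted p = 0.678, n = 2073 peaks).

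GAGAGAG was rarer and TATAAA more frequent in members than in either other class. GAGAGAG was in 0.428% of members, 2.26% of upstream and 1.79% of downstream peaks, and in 3.84% of all promoters (odds ratio against upstream 0.186, 0.0737 to 0.470, BH adjusted p = 0.000753, n = 4332 peaks). Against downstream peaks the odds ratio was 0.235 (adjusted p = 0.00647, n = 4332 peaks). The counts rest on 5 members, and in replicate 2 neither comparison passed (adjusted p = 0.0743 against upstream and 0.557 against downstream peaks, n = 2073 peaks). With signal, GC share and distance to the TSS as covariates neither comparison passed (against upstream peaks adjusted p = 0.0965, against downstream peaks 0.860, n = 4332 peaks). TATAAA was in 12.2% of members, 7.93% of upstream and 6.92% of downstream peaks, but in 19.1% of all promoters. The odds ratio against upstream peaks was 1.61 (1.27 to 2.04, adjusted p = 0.000219, n = 4332 peaks), and against downstream peaks it was 1.86 (1.40 to 2.48, adjusted p = 4.84e-05). Against upstream peaks the shares were 12.1% against 7.63% in replicate 1 and 13.7% against 9.38% in replicate 2. With the same 3 covariates the odds ratio was 1.14 (adjusted p = 0.376) against upstream peaks and, with the direction turned, 0.885 (adjusted p = 0.558, n = 4332 peaks) against downstream peaks, and median GC was 41.6% in members, 44.6% in upstream and 48.5% in downstream windows. AGNTGGCGC was in 0.856%, 1.51% and 0.769%, with no call and with 0.525% of all promoters.

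More copies of CGATAG went with more signal. The 676 members without one had a median signal of 161. With 1 copy (333 members) it was 350, with 2 copies (124) 447 and with 3 or more (35) 727. Both replicate lists held 54.6%, 77.8%, 83.9% and 91.4% of these groups, so both measures climbed at each step. Upstream peaks with 0, 1, 2 and 3 or more copies had medians of 113, 364, 480 and 642. Members with GGTCACACT and neither of the other 2 elements numbered 29, with a median of 94.9, below the 157 of the 579 members with none of the 3. Upstream peaks did not show this, with medians of 110.4 (49 peaks) and 107.5 (1093 peaks) in these 2 groups.

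Counted over the whole gap, 597 members (51.1%) had at least 1 CGATAG, 163 of them 2 and 81 of them 3 or more, up to 5. The copy nearest to the summit was 22.5 bp away in the median, while the summit was 85 bp from the midpoint of these gaps. In 408 of the 597 the copy was nearer to the summit than the midpoint was. This count is a description only, since the nearest of up to 5 copies is set against 1 fixed point. Copies and summits also both lay near a TSS. The 942 copies lay 35.5 bp from the nearer TSS in the median, and 52.7% (49.5 to 55.8) read toward it. Copies of 1 gap are not independent, and each palindrome counted below holds 1 copy in each direction. This draws the share toward an even split, so no conclusion on direction is drawn. Of 345 neighbouring copies, 109 read CTATCG and then CGATAG, and in 48 of these the starts were 4 bp apart, which makes the palindrome CTATCGATAG seen in Fibp / Deaf1 above.

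A count of all hexamers, made after the motif counts were seen, gave a picture without a list of motifs. Each hexamer was counted with its reverse complement, which leaves 2080, and the 116 found in at least 10% of members were ranked by their share of member windows over that of windows 1000 bp away. CGATAG ranked first (42.1% against 2.57%, ratio 16.4), then TATCGA (51.2% against 3.72%) and ATCGAT (42.9% against 3.72%). Upstream peaks had shares nearly as high, at 36.7% for CGATAG, 46.9% for TATCGA and 42.6% for ATCGAT. Downstream peaks were lower, at 12.2% for CGATAG. The ranking thus sets members apart from distant windows and not from upstream peaks. Each of the first 12 held CGATA, the shifted GATAG or the inner ATCGA on one strand or the other. Hits of these hexamers overlap each other and the motifs above. Among the 579 members with none of the 3 motifs, ATCGAT was still in 18.7% and ATATCG in 19.9%, against 12% and 8.49% of all promoters.

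The distance between the TSSs went with the sequence of the summit windows. CGATAG was in 55.1% of members with gaps up to 100 bp, 31.6% above 200 and up to 300 bp and 46.9% above 400 and up to 500 bp. In the narrowest gaps the window reaches past both TSSs. TATCGATA was highest in the narrowest gaps too, at 33.1%, against 13.9% between 200 and 300 bp. GGTCACACT was in 10.1% up to 100 bp, 9.38% up to 200 bp and 1.86% between 200 and 300 bp. CAGCTG was in 19.1% up to 100 bp and 8.98% between 200 and 300 bp. TATAAA ran the other way, at 6.18% up to 100 bp and 20.1% between 200 and 300 bp, where the median GC share was lowest at 36.6%. The median signal was 284 up to 100 bp, 242 between 300 and 400 bp and 183 above 500 bp, and the share in the top 10% was 24.7%, 13.4% and 18.5% in these classes (Spearman's rho of gap and signal -0.08 over 1168 members, as a description).

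Genes of protein synthesis and turnover were at members in higher shares than all genes, described here by counts. The same held for several other lists, such as oxidative phosphorylation and the replication origin, and for the Notch pathway given below. Of 13945 protein-coding genes, 16.3% had a TSS at a member. Among 73 genes for mitochondrial ribosomal proteins 29 did (39.7%), among 33 aminoacyl-tRNA synthetase genes 14 (42.4%) and among 48 proteasome genes 17 (35.4%). Cytosolic ribosomal proteins had 25 of 86 (29.1%), oxidative phosphorylation 24 of 86 (27.9%), translation initiation factors 12 of 44 (27.3%), Mediator subunits 7 of 25 and replication origin and MCM proteins 4 of 12. By the replicate 2 list, which has fewer members, the counts were 18 for mitochondrial ribosomal proteins, 9 for synthetases and 11 for the proteasome. The share of all genes by that list is not given here, so these counts do not show whether the difference holds there. Neighbouring genes of 1 pair can share a peak.

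The lists also differed in how many genes have a divergent partner at all, at 79.5% of the mitochondrial ribosomal list and 35.8% of all genes. Among genes with a partner, 50% of the mitochondrial ribosomal list, 60.9% of the synthetases and 65.4% of the proteasome list were at members, against 45.4% of all genes with one. The share was 47.2% for cytosolic ribosomal proteins, close to that of all genes, and 38.9% for Mediator subunits, below it. Named members show the kinds of pairs. eIF2gamma, a subunit of the factor that brings the initiator tRNA, and Set had 1749 in the pooled reads, 1103 in replicate 1 and 656 in replicate 2, and eIF3a / CG1074 had 1470.0, 939.6 and 522. COX6B, a subunit of cytochrome c oxidase, and CG33932 had 1704. Tudor-SN and mRpL17 had 1536, ATPsynF / CG3548 had 1167, and Prosalpha7 / CG1671 had 1160.1. Every peak named in these sentences was in both replicate lists.

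None of the 12 proneural bHLH genes and partners had a divergent partner within 1000 bp and none was at a member. A summit lay within 500 bp of a TSS in 2 of the 12 (16.7%), against 37.3% of all genes. No cuticle protein gene of 70 was at a member (3 had a partner). Of 179 chemoreceptor genes 5 were (2.79%, against 16.3% of all genes), and 26 had a partner. Ir31a, an ionotropic receptor gene, shared its peak with LSm-4, an Sm-like protein gene, 17 bp from the LSm-4 TSS and 345 bp from that of Ir31a. Its signal was 424, and it was in the replicate 1 list alone. Likewise the peak shared by Gr97a, a gustatory receptor gene, and CG5521 (334) was 39 bp from CG5521 and 406 bp from Gr97a. In both pairs the summit was nearer to the gene outside the receptor family.

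Over all protein-coding genes 16.3% were at members, and 45.4% of those with a divergent partner. Of 13 Notch pathway genes found, 4 were at members (30.8%), and 7 had a partner. The strongest was mam, the co-activator Mastermind, which shared a peak of 1160.2 with RN-tre (847 in replicate 1 and 322 in replicate 2). Next came neur, the ubiquitin ligase that acts on Delta, with hyx (324, 181 and 136). The mam summit was 93 bp from the mam TSS, and the neur summit 260 bp from the neur TSS and 35 bp from that of hyx. Of 14 pan-neuronal genes 1 was at a member (7.14%). It was Rop, which encodes a syntaxin-binding protein of synaptic vesicle release, with Ras64B (819 in the pooled reads, 455 in replicate 1 and 367 in replicate 2). Cell cycle genes had 3 of 17 (17.6%), with CG3281 / aurA, the gene of the mitotic kinase Aurora A, at 1102. Insulator protein genes had 2 of 14 (14.3%): Cp190 / CG4338 (556) and Chro / Ssl1 (60.7, in neither replicate list). Both shares were near that of all genes.

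The remaining members were found in 1 replicate list or in neither. Replicate 1 alone held 334 (28.6%), replicate 2 alone 32 and neither list 38, with median signals of 104, 82.8 and 59.4 against 366 for members in both. CGATAG was in 51.7% of the members in both lists, 26.9% of those in replicate 1 alone, 12.5% of those in replicate 2 alone and 7.89% of those in neither. The strongest in the replicate 1 list alone were TAF1B / Invadolysin (941) and Pax / Alp12 (796). In the replicate 2 list alone they were Klp67A / CG4452 (514) and Plap / CG31922 (406). Absence from a list is not absence of signal: Plap / CG31922 had 209 in the ranked list of replicate 1 and 193 in replicate 2. A further member in the Klp67A / CG4452 gap had 496 in the pooled reads. In neither list, ArgRS / CG8578 (263) and Arp3 / msk (116) came first. At the edge of the rule, 89 members had their farther TSS over 450 and up to 500 bp away, with a median percentile of 72.9, and 79 peaks just outside had it over 500 and up to 550 bp away, with 66.5.

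The members were spread over 5 of the 6 arms: 195 on 2L, 242 on 2R, 233 on 3L, 290 on 3R, 208 on X and 0 on 4. The share of divergent pairs with a peak was highest on X, at 57.7% (52.8 to 62.4) of 397 pairs, and lay between 40.0% and 49.8% on the other large arms. Arm 4 had 12 such pairs and no peak between them, which allows a share of up to 24.2% by the Wilson interval.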

How the data were processed

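Chromatin immunoprecipitation sequencing of 2 biological replicates gave peak lists on dm6, per the labels. The aligner and peak caller were not given in the sources used here. Signal, as deposited, is the value the authors gave each peak, the deposited q value is written as −log10, and the deposited summit offset places the summit. The authors called peaks per replicate and on pooled reads. The lists hold positions and peak values and no read counts, so depth is unknown.

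From there, summits were set against protein-coding transcript 5' ends of Ensembl release 115 (13945 genes, 19253 TSSs). Motifs were searched on both strands in windows 50 bp to each side of the summit. Classes were compared by logistic regression (statsmodels 0.14.6) over all promoter peaks, with BH adjustment over 24 tests (8 motifs and 4 other measures, 2 class comparisons) and a threshold of 0.05, and checked on simulated data. Intervals are Wilson for shares and Newcombe for differences, at 95%. The members and lists were chosen with earlier results of these data known. Named members are the 12 with the highest signal, the highest with or without certain motifs, those highest in 1 or neither replicate list, the narrowest and widest gaps in the top 10%, and the 2 highest per gene list. Others were named after their values were seen. Of the symbols in the lists, 4 were not found. Alternatives were each replicate list, stricter lists, other TSS definitions, distances, windows and covariates.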

Additional observations from a re-analysis of the deposited data

How the results depend on the processing

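A motif comparison has no value where a class held no window with the motif. No paired analysis was possible because the study has 1 group. Depth is unknown, and each replicate list stands for leaving out the other replicate.

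The member count was 679 with TSSs within 250 bp. By replicate list, the member share of promoter peaks ran from 23.3% to 39.1%, the share of divergent pairs with a peak from 33.2% to 46.8%, the CGATAG difference between pairs from 40.0 to 42.4 points, the share of summits in the middle of 3 equal parts of the gap from 26.0% to 30.4% and the median percentile from 54.5 to 74.2. The pair share was 36.9% in the conservative list and 36.9% with peaks above the median signal. The CGATAG difference was 46.2 points with peaks above the median signal and 43.9 at q of 0.05 or less, both chosen after seeing the data.

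Odds ratios against upstream peaks for CGATAG ran from 0.929 to 1.57 by replicate list. They were 0.999 in the conservative list and 0.978 above the median signal, both turned in direction, and 1.14 at q of 0.05 or less, 1.10 with gene 5' ends, 1.04 (TSSs within 250 bp), 1.05 (25 bp windows), 1.07 (signal as covariate) and 1.03 (signal, GC and distance), none past the threshold. For TATCGATA against downstream peaks they ran from 1.22 to 5.25 by replicate list. For GAGAGAG against upstream peaks they ran from 0.0971 to 0.206 by replicate list and lost the call at 0.357 (above the median signal), 0.305 (gene 5' ends) and 0.383 (3 covariates). Against downstream peaks they ran from 0.264 to 0.282 and lost the call at 0.637 (conservative), 0.962 (above the median), 0.350 (q), 0.293 (gene 5' ends), 0.290 (250 bp), 0.199 (25 bp windows), 0.405 (signal) and 0.909 (3 covariates). TATAAA fell short at 1.14 against upstream peaks (3 covariates) and at 1.36 against downstream peaks (above the median), and turned at 0.885 (3 covariates).

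Comparisons not called in the pooled list turned or gained the call as follows. TATCGATA against upstream peaks ran from 0.821 to 1.17 by replicate list and was 1.16 (TSSs within 1000 bp), 1.20 (100 bp windows, past the threshold) and 0.744 (3 covariates, past the threshold the other way). GGTCACACT ran from 0.896 to 1.34 against upstream and from 0.619 to 2.20 against downstream peaks, and was 0.947 against upstream peaks above the median signal. It passed at 1.33 against upstream peaks (100 bp windows), and against downstream peaks at 2.20 (replicate 1), 1.52 (1000 bp) and 1.80 (100 bp windows). CANNTG was 0.945 against upstream peaks (1000 bp), and against downstream peaks 1.05 (above the median), 1.02 (signal) and 1.19 (3 covariates), with 0.822 (1000 bp) past the threshold. CAGCTG was 0.983 (above the median), 0.892 (1000 bp) and 0.948 (25 bp windows) against upstream peaks, and against downstream peaks 0.965 (25 bp windows) and from 0.866 to 1.73 by replicate list. The comparison with downstream peaks passed at 1.73 (replicate 1), 1.54 (250 bp), 1.52 (signal) and 2.03 (3 covariates). AGNTGGCGC passed at 0.428 against upstream peaks (1000 bp). AGNTGGCGC against downstream peaks was 0.558 (above the median), 0.943 (gene 5' ends), 0.825 (1000 bp) and 0.736 (100 bp windows). The share in the top 10% against upstream peaks ran from 0.833 to 1.13 by replicate list and was 0.789 (conservative), 0.804 (above the median), 0.959 (q) and 0.972 (gene 5' ends). The cause of these changes was not tested.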
